A study of Homo sapiens with 6 samples.

Results

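Cholesterol and fatty acids are both built from acetyl-CoA, and the 33 genes described here are enzymes of these routes with their regulators. They were measured in CD24+ and CD24- cells sorted by flow cytometry from ARP1, OCI-MY5 and OPM2, 3 established human lines of multiple myeloma, the malignancy of antibody-producing plasma cells. The submitters call the CD24+ cells, which carry the small surface glycoprotein CD24, a cancer stem cell population, and the CD24- cells of the same line are their controls. All cells grew in serum-containing RPMI-1640 medium with no drug and no genetic change named in the labels, and each line gave 1 array of each fraction, 6 Affymetrix U133 Plus 2.0 arrays in all. A gene was represented by the probe set annotated to it alone with the highest mean log2 value over the 6 arrays. Of the 33 genes, 29 had such a probe set, out of 19775 genes with one in the whole series, and 28 of them were among the 12078 genes bright enough to be tested. The 28 were 15 enzymes of the sterol branch, 5 regulators, the sterol carrier STARD4 and 7 genes of the fatty acid branch. MVD, which decarboxylates mevalonate diphosphate, was too dim to test, 2 genes had no probe set free of a neighbouring gene, and 2 other members were not analysed here.

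The sterol branch joins acetyl-CoA units to mevalonate, turns mevalonate into isoprenoid units, condenses these to squalene and folds and trims squalene into cholesterol. The fatty acid branch carboxylates acetyl-CoA, extends it to palmitate, and then lengthens and desaturates the chain. Both are transcribed under SREBP proteins, the products of SREBF1 and SREBF2, which SCAP carries from the endoplasmic reticulum to the Golgi for cutting when sterol is scarce and which INSIG proteins hold back when sterol is plentiful. Plasma cells keep a large endoplasmic reticulum for antibody secretion, and its membranes are made of such lipids.

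The values are MAS5 intensities, the brightness of a probe set on a linear scale, and differences are given as log2(intensity + 16), which understates the change of dim genes. A gene is called where its two-sided limma test had an adjusted p under 0.05 over all 12078 genes. In tests between lines the 2 fractions of a line served as its 2 arrays, so the p-values measure the spread between the fractions of a line, 1 array each, and not between repeated cultures. These are bulk samples, in which fewer cells of a type and less RNA per cell cannot be told apart. The CD24+ array of OPM2 stood apart, with a median intensity of 135 against 69.0 to 84.2 on the other 5 and bacterial spike-ins of 37362 against 6175 to 7399. The ratio of 3′ to 5′ signal of ACTB, which grows as RNA breaks down, was 27.1 on that array and 23.2 on the CD24- array of OCI-MY5, and 2.47 to 9.36 on the other 4. The 6 probe sets of CD24 read 1.69 to 140.3. Of their 36 values 32 were at or below 96.4, the highest reading of the bacterial TrpnX control probe sets. That reading came from the CD24+ array of OPM2, and the highest TrpnX readings of the other 5 arrays were 10.3 to 64.5. The arrays therefore gave no check of the sort. Of 10 plasma cell genes 9 were bright enough to be tested, CD27 (7.42 to 172) being the exception. So were 3 of 3 measured markers of B cells, 0 of 3 of T cells, 2 of 4 of myeloid cells and 1 of 3 of stromal cells. The summed intensity of the measured markers was 110200 to 261672 for plasma cells and 158 to 615 for B cells. It was 51.7 to 186 for T cells, 61.6 to 600.2 for myeloid cells and 251 to 453 for stromal cells. SLAMF7, a plasma cell gene, read 257 and 317 in OCI-MY5. PAX5, a B cell marker, read 272 to 421 in ARP1 and OCI-MY5 and 16.4 and 15.9 in OPM2. HBB, a haemoglobin gene, read 2298 and 1792 on the OPM2 arrays and 76.2 to 225 on the others, and its part in the results was not tested.

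The 250 bases before the transcription start are shown for 5 members whose levels are described below, taken from RefSeq on GRCh38.p14 and written 5′ to 3′ on the gene's strand. INSIG1, SREBF2, DHCR7 and SCD read higher in OPM2 than in OCI-MY5 and STARD4 read lower, so the set spans both directions. Capitals mark the CCAAT box, which is CCAAT or its complement ATTGG and binds the factor NF-Y, and in SREBF2 also TCACCCCAC, a match to the SREBP site TCACNCCAC.
INSIG1, which lay highest in OPM2, chr7:155297628-155297877, plus strand: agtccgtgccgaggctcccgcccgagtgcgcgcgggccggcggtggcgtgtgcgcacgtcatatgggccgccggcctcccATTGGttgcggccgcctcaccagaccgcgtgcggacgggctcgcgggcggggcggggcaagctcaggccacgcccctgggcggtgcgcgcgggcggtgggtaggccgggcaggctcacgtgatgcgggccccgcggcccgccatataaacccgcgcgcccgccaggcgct
SREBF2, with the SREBP site, chr22:41832855-41833104, plus strand: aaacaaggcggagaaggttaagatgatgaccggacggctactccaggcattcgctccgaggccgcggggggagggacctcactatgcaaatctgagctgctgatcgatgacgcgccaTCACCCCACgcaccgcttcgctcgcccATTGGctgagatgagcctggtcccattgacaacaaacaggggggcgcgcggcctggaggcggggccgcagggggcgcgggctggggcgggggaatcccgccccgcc
DHCR7, a sterol reductase, chr11:71448394-71448643, minus strand: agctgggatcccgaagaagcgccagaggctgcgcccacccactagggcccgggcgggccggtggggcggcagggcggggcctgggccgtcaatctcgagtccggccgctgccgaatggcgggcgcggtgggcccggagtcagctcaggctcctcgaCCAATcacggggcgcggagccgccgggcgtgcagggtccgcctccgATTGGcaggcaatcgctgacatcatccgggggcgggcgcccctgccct
SCD, of the fatty acid branch, chr10:100346983-100347232, plus strand: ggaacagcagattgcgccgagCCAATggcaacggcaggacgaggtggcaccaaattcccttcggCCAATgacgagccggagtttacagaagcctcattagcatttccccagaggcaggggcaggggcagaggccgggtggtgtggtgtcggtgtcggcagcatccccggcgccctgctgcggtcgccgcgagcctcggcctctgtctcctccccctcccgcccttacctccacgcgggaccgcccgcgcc
STARD4, lowest in OPM2, chr5:111512536-111512785, minus strand: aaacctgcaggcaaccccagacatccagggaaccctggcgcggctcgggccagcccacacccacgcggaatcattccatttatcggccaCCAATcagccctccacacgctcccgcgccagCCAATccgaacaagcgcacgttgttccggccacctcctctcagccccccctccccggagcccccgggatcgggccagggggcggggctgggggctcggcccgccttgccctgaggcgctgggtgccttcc
Promoter windows of 300 bases, 250 before and 50 after the start, were at hand for 26 of the 29 members, and both strands were searched. A CCAAT box lay in 18 of the 26 (69.2%) against 34.6% of 35116 promoters of the same length, in 12 of 14 of the sterol branch (85.7%) and in 3 of 6 of the fatty acid branch. Those 35116 are all the windows at hand and were not limited to genes measured or tested on these arrays. The GC box GGGCGG lay in 23 of 26 (88.5%) against 45.0%, and the E-box CACGTG in 5 of 26 (19.2%) against 7.26%. The SREBP site, searched only as TCACNCCAC, matched in 1 of 26, SREBF2, against 1.13% of all promoters. A site with other letters would not have been found. In SREBF2 it began at position -133 from the start with a CCAAT box at -106. STARD4, lower in OPM2 than in the other lines, held CCAAT boxes at -161 and -130, and DHCR7, which was higher in OPM2 than in the other lines, held them at -94 and -48. These are matches of letters, with no test.

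The lines were set side by side first, because line accounted for most of the spread of these genes. The median share of a member's sum of squares that lay between the lines was 81.7%, against 77.5% over all genes tested, and the share between the fractions was 5.42% against 4.76%. OPM2 and OCI-MY5 differed in 13 of 28 members, 10 higher and 3 lower in OPM2, which is 46.4% beside 26.1% of all genes. The shares by direction over all genes were 11.4% higher and 14.7% lower. OPM2 and ARP1 differed in 6 members, 4 higher and 2 lower, 21.4% beside 25% of all genes (10.1% higher, 14.8% lower). ARP1 and OCI-MY5 differed in 2 members, both higher in ARP1, 7.14% beside 2.62% of all genes (1.78% higher, 0.836% lower). The comparisons share arrays, so their counts are not independent. The moderated F test over the 3 lines called 9 members beside 28.5% of all genes. Arrays of OPM2 and OCI-MY5 did not overlap in 20 of 28 members, 71.4% beside 65.8% of all genes. For OPM2 and ARP1 it was 18 (64.3% beside 65.6%), and for ARP1 and OCI-MY5 19 (67.9% beside 63.8%), all near the share of all genes.

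Leaving out an ARP1 or OCI-MY5 array lowered the share of all genes called, given in brackets, as well as the members' counts. The count of 13 fell to 6 without the CD24+ or the CD24- array of ARP1 (14.4% and 14.5% of all genes). It fell to 5 without the CD24+ array of OCI-MY5 (8.27%) and to 4 without its CD24- array (7.9%), and was 10 (26.9%) and 15 (37.8%) without the CD24+ and the CD24- array of OPM2. Without the OPM2 CD24+ and OCI-MY5 CD24- arrays together it was 5 (16%). The count of 6 against ARP1 fell to 3 (5.71%) and 2 (5.63%) without the CD24+ and the CD24- array of ARP1, and was 7 (22%) without the 2 doubted arrays. The 2 calls between ARP1 and OCI-MY5 fell to 0 without any 1 of their 4 arrays, and was 3 without either OPM2 array. The F test's 9 fell to 5 without the CD24- array of ARP1 or either OCI-MY5 array. With each array centred on its median, 5 members were called between OPM2 and OCI-MY5, beside 17.9% of all genes, and 3 between OPM2 and ARP1, beside 15.4%. Of the members called between OPM2 and OCI-MY5, those that kept the call with centring were SREBF1, INSIG1, STARD4, ELOVL5 and ELOVL6. With the fraction as a covariate the counts were 10 (21.6% of all genes), 5 (19.8%) and 0 (0.0497%) in OPM2 minus OCI-MY5, OPM2 minus ARP1 and ARP1 minus OCI-MY5.

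**Figure D1:**
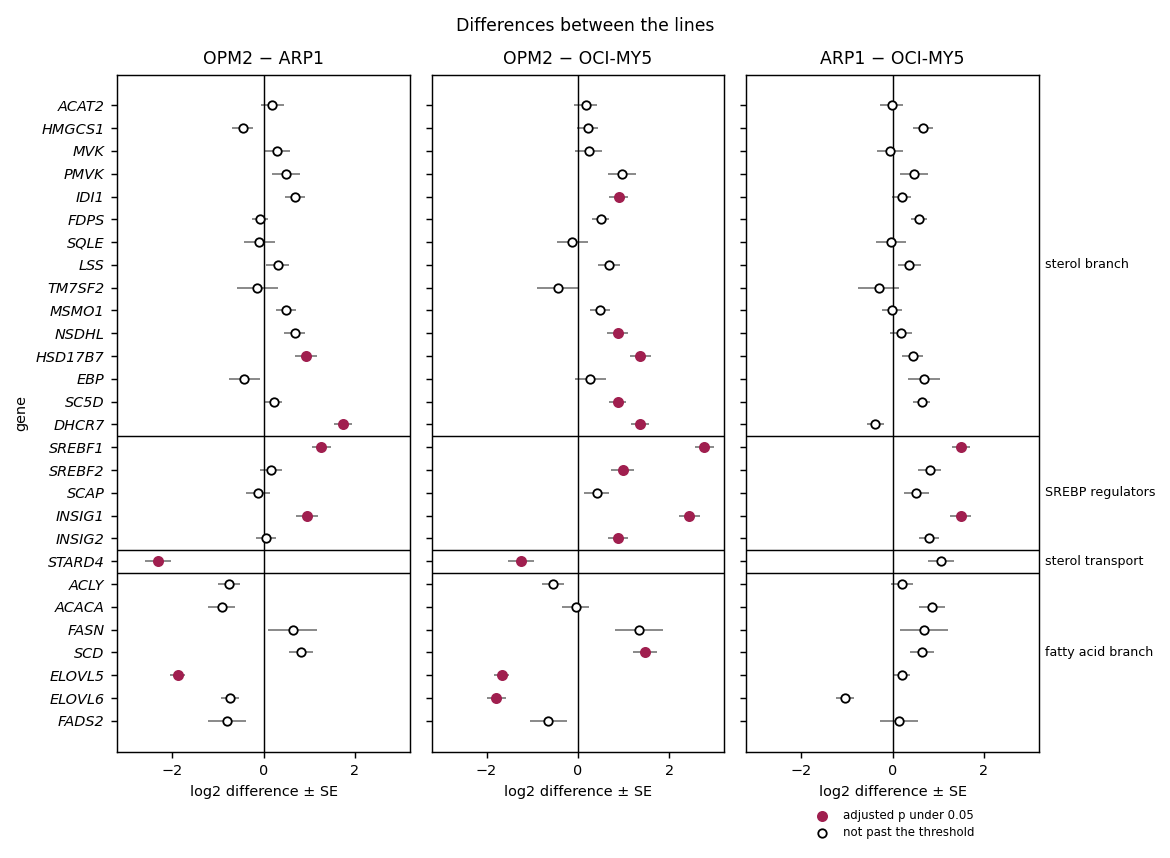
Differences between lines for the 28 tested members, in log2 units with 1 standard error from the limma fit (horizontal axis), with genes ordered by branch; filled points have an adjusted p under 0.05. SREBF1 and INSIG1 lie farthest right in OPM2 minus OCI-MY5 (2.76 and 2.44), and STARD4, ELOVL5 and ELOVL6 lie left of 0.

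SREBF1, which encodes the SREBP-1 proteins that drive mainly fatty acid genes, differed in all 3 pairs of lines. Its intensity was 862 (CD24+) and 1040.2 (CD24-) on the ARP1 arrays, 360.2 and 294 on the OCI-MY5 arrays, and 2181 and 2433 on the OPM2 arrays. Every OPM2 array lay above every ARP1 array, and both ARP1 arrays above both OCI-MY5 arrays. OPM2 exceeded OCI-MY5 by 2.76 ± 0.21 (SE; 6.79-fold, adjusted p = 0.00173) and ARP1 by 1.27 ± 0.21 (2.41-fold, adjusted p = 0.0138), and ARP1 exceeded OCI-MY5 2.82-fold (SE of the log2 difference 0.21, adjusted p = 0.0395). A second, dimmer SREBF1 probe set gave −0.18 for ARP1 minus OCI-MY5, so that pair's direction depended on the probe set.

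INSIG1 encodes the endoplasmic reticulum protein that retains SCAP and is itself a classic SREBP target. It read 6183 and 7716 in ARP1 (CD24+ and CD24-), 2467 and 2442 in OCI-MY5, and 11398 and 15673 in OPM2. On this probe set the order of the lines was that of SREBF1, with no overlap. OPM2 lay above OCI-MY5 by 2.44 ± 0.24 (5.42-fold, adjusted p = 0.00327) and above ARP1 by 0.95 ± 0.24 (1.93-fold, adjusted p = 0.0415). ARP1 lay above OCI-MY5 by 1.49 ± 0.24 (2.80-fold, adjusted p = 0.0498). On the dimmer INSIG1 sets the OPM2 and ARP1 arrays overlapped, and OPM2 minus ARP1 was 0.28 and 0.61 (adjusted p = 0.741 and 0.481 over all probe sets). Against OCI-MY5 those sets gave 1.74 and 2.31.

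The other regulators differed by less. SREBF2, whose SREBP-2 product drives mainly sterol genes, read 812 and 622 in ARP1, 408 and 391 in OCI-MY5, and 945 and 677 in OPM2. OPM2 and ARP1 overlapped and both lay above OCI-MY5, and OPM2 minus OCI-MY5 was 0.97 ± 0.25 (adjusted p = 0.0427). INSIG2, the second retention protein, read 768 and 1044 in ARP1, 536 and 478 in OCI-MY5, and 982 and 893 in OPM2. It too overlapped between OPM2 and ARP1, and OPM2 minus OCI-MY5 was 0.87 ± 0.22 (adjusted p = 0.0423, and 0.0727 with the fraction as a covariate). SCAP, the escort of SREBP, read 1698 and 1309 in ARP1, 1212 and 882 in OCI-MY5, and 1205 and 1566 in OPM2, and was called in no comparison. All 5 regulators had positive values for ARP1 minus OCI-MY5, with a median of 0.81, and for OPM2 minus OCI-MY5, with a median of 0.97. The median over all genes was 0.04 and −0.00169 in those comparisons.

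**Figure D2:**
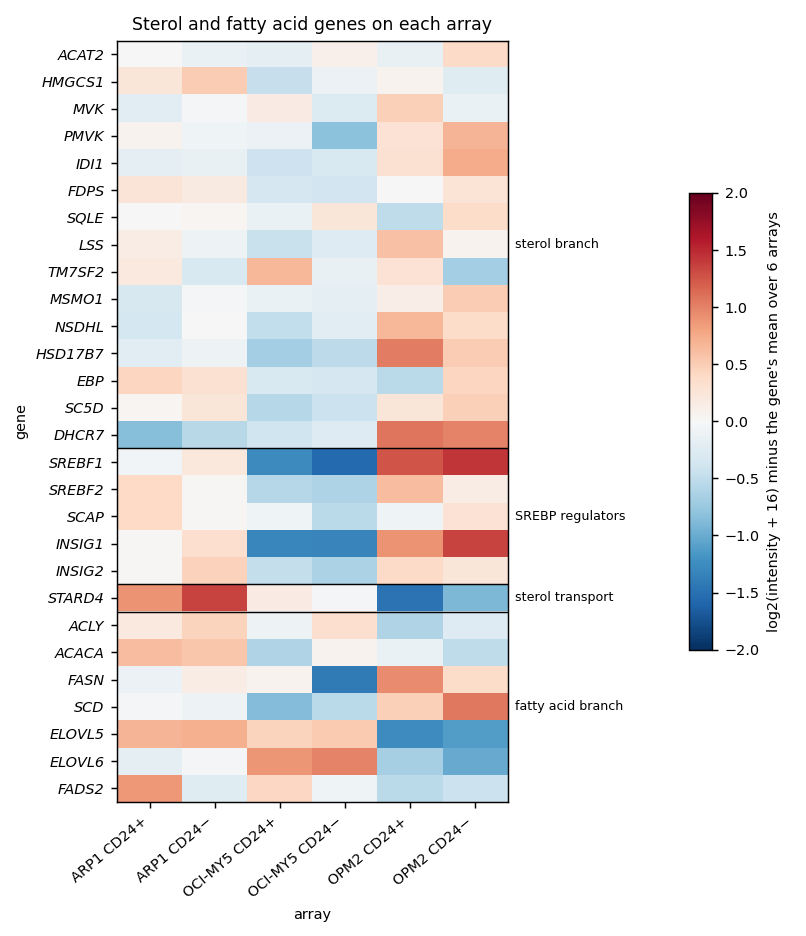
Heat map of the members (rows, by branch) on the 6 arrays (columns), coloured by the deviation of log2(intensity + 16) from the gene's mean over the arrays. SREBF1 and INSIG1 are low on both OCI-MY5 arrays and high on both OPM2 arrays, while ELOVL5 and STARD4 are low on both OPM2 arrays.

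The upper sterol route, from acetyl-CoA to farnesyl diphosphate, gave 1 call, higher in OPM2, among 6 tested enzymes between OPM2 and OCI-MY5 (11.4% of all genes) and none in the other pairs. IDI1, which isomerises isopentenyl diphosphate, read 5735 and 5891 in ARP1, 4872 and 5268 in OCI-MY5, and 8086 and 10941 in OPM2. OPM2 lay above both lines, with 0.89 ± 0.21 against OCI-MY5 (1.85-fold, adjusted p = 0.0366, and 0.05003 with the fraction as a covariate) and 0.69 ± 0.21 against ARP1 (adjusted p = 0.0706). Its probe set is of a kind that can bind related transcripts, and 2 of its 4 probe sets gave the opposite sign, −0.17 and −0.48. ACAT2, which joins acetyl-CoA units, differed by −0.02 to 0.19 among the lines. HMGCS1, which makes HMG-CoA, lay between −0.46 and 0.67, the mevalonate kinase MVK between −0.06 and 0.29, and PMVK, the phosphomevalonate kinase, between 0.46 and 0.96. FDPS, which makes farnesyl diphosphate, read 9559 to 14918, with 0.49 for OPM2 minus OCI-MY5 (adjusted p = 0.104). MVD read 5.42 to 80 on the 6 arrays, below the highest TrpnX control reading, 96.4 on the CD24+ array of OPM2. In ARP1 it read 58.2 and 80, above those arrays' own highest TrpnX readings of 10.3 and 64.5. On the CD24+ array of OCI-MY5 it read 39.7 against 39.3, and on the remaining arrays it lay below their own highest.

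Beyond squalene, 4 of 9 enzymes were higher in OPM2 than in OCI-MY5, beside 11.4% of all genes, and 2 of them also higher than in ARP1, beside 10.1%. DHCR7, the reductase of the last step to cholesterol, read 601 and 739 in ARP1, 829 and 917 in OCI-MY5, and 2323 and 2195 in OPM2. OPM2 stood clear of both lines, by 1.74 ± 0.19 against ARP1 (3.33-fold, adjusted p = 0.00484) and by 1.36 ± 0.19 against OCI-MY5 (2.56-fold, adjusted p = 0.00874). Here ARP1 lay below OCI-MY5 by 0.38, which did not pass the test (adjusted p = 0.308).

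HSD17B7, a 3-ketosteroid reductase of the route, read 1553 and 1701 in ARP1, 1132 and 1266 in OCI-MY5, and 3715 and 2590.0 in OPM2. The OPM2 arrays lay highest, by 1.36 ± 0.24 against OCI-MY5 (2.57-fold, adjusted p = 0.0152) and 0.93 ± 0.24 against ARP1 (1.90-fold, adjusted p = 0.0442, and 0.0751 with the fraction as a covariate). Its probe set too can bind related transcripts. NSDHL, which removes the C4 carboxyl group, read 632 and 815 in ARP1, 571 and 696 in OCI-MY5, and 1290.3 and 1052 in OPM2. OPM2 minus OCI-MY5 was 0.87 ± 0.23 (adjusted p = 0.0485, and 0.0759 with the fraction as a covariate). SC5D, the C5 desaturase, read 1298 and 1486 in ARP1, 848 and 927 in OCI-MY5, and 1501 and 1760.1 in OPM2. Its OCI-MY5 arrays lay below all others, and OPM2 minus OCI-MY5 was 0.86 ± 0.19 (adjusted p = 0.0294).

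The other 5 enzymes of this stretch were called in no line comparison. SQLE, the squalene epoxidase, differed by −0.13 to −0.03 among the lines on the chosen set. A dimmer SQLE set gave −1.39 for OPM2 minus ARP1 and 0.97 for ARP1 minus OCI-MY5 (adjusted p = 0.133 and 0.377 over all probe sets). The remaining SQLE sets gave −0.39 and −0.09 for OPM2 minus ARP1, and 0.29 and 0.40 for ARP1 minus OCI-MY5. LSS, which closes the sterol rings, gave 0.68 ± 0.25 for OPM2 minus OCI-MY5 (adjusted p = 0.106), and MSMO1, the C4 methyl oxidase, gave 0.48 ± 0.22 (adjusted p = 0.169). TM7SF2, the C14 reductase, gave −0.45 ± 0.45. EBP, the isomerase that moves the ring double bond, depended on the probe set. The set with the highest mean log2 value read 3132 and 6161 in OPM2 and 3699.6 and 3591 in OCI-MY5, a difference of 0.27 (adjusted p = 0.595). Another EBP set read 8029.8 and 5771 in OPM2 against 3235 and 3345, with a difference of 1.05 (adjusted p = 0.040 over all probe sets). Choosing sets by mean linear intensity would take this second set and give 14 called members in place of 13.

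**Figure D3:**
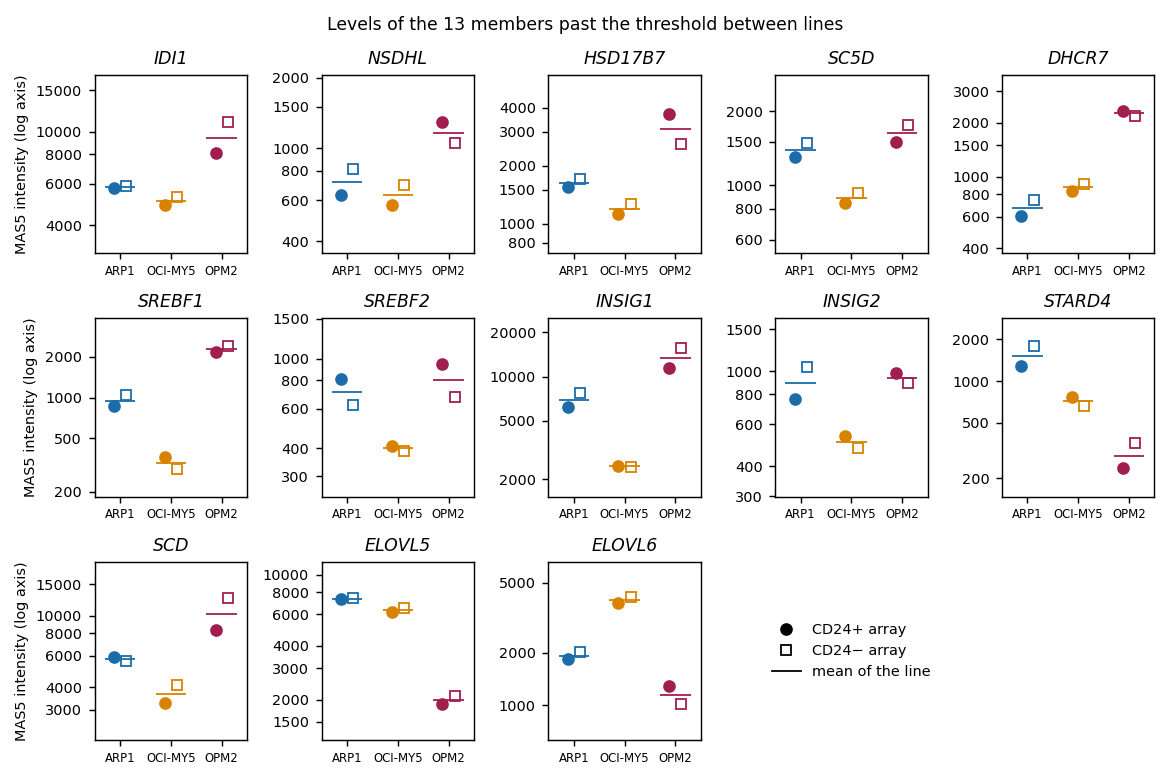
MAS5 intensity (log axis) of the 13 members called between at least 1 pair of lines, 1 point per array, grouped by line and fraction. For DHCR7 and HSD17B7 both OPM2 points lie above the 4 others, and for ELOVL5 and STARD4 both lie below.

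STARD4, a soluble carrier that moves sterol between membranes and is a known SREBP-2 target, went the other way. It read 1287 and 1781 in ARP1, 769.9 and 665 in OCI-MY5, and 236 and 359 in OPM2. No lines overlapped, with ARP1 highest and OPM2 lowest. OPM2 minus ARP1 was −2.32 ± 0.29 (4.98-fold, adjusted p = 0.00668), and OPM2 minus OCI-MY5 was −1.25 ± 0.29 (2.38-fold, adjusted p = 0.0327). In the same pair 13 of 15 sterol enzymes had positive values, 5 of them called beside 11.4% of all genes, SQLE and TM7SF2 being the exceptions. Median centring took the median over all genes in this pair to −0.40. With it 9 sterol enzymes were positive and 6 negative, and 0 of the 5 calls held (adjusted p = 0.11 to 0.499).

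The fatty acid branch split. SCD, which puts the first double bond into stearate, read 5866 and 5601 in ARP1, 3266 and 4107 in OCI-MY5, and 8308 and 12486 in OPM2. OPM2 lay above the other lines, with 1.47 ± 0.26 against OCI-MY5 (2.77-fold, adjusted p = 0.0169) and 0.83 ± 0.26 against ARP1 (adjusted p = 0.0769). The elongase ELOVL5, which lengthens polyunsaturated chains, read 7309 and 7403 in ARP1, 6199.8 and 6540.0 in OCI-MY5, and 1896 and 2082 in OPM2. Both OPM2 arrays lay far below the other 4, with −1.88 ± 0.17 against ARP1 (3.68-fold, adjusted p = 0.00292) and −1.67 ± 0.17 against OCI-MY5 (3.19-fold, adjusted p = 0.00359). ELOVL6, the elongase of palmitate, read 1828 and 2013 in ARP1, 3832 and 4132 in OCI-MY5, and 1294 and 1012 in OPM2. On this set OCI-MY5 was highest and OPM2 lowest, with −1.78 ± 0.20 for OPM2 minus OCI-MY5 (3.44-fold, adjusted p = 0.0049) and −0.74 ± 0.20 for OPM2 minus ARP1 (adjusted p = 0.0525). ARP1 minus OCI-MY5 was −1.05 and was not called (adjusted p = 0.0673). A dimmer ELOVL6 set gave −2.08 for OPM2 minus ARP1 (adjusted p = 0.0051 over all probe sets) and −0.13 for ARP1 minus OCI-MY5, where the arrays overlapped. Another gave −1.42 and −1.08 in those pairs (adjusted p = 0.0876 and 0.268). One dim ELOVL5 probe set gave the opposite sign, 1.01 against ARP1 and 0.38 against OCI-MY5, while its other sets were lower in OPM2.

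On the chosen probe sets the earlier steps of fatty acid synthesis were called in no line comparison. ACLY, which makes cytosolic acetyl-CoA from citrate, read 5678 to 11702, with −0.75 ± 0.25 for OPM2 minus ARP1 (adjusted p = 0.0825). The dimmer ACLY sets gave −1.39 and −2.66 in that pair (adjusted p = 0.0283 and 0.0309 over all probe sets). ACACA, the acetyl-CoA carboxylase, read 720.2 to 1708, with −0.92 ± 0.29 in that pair (adjusted p = 0.0742). A dimmer ACACA set gave the opposite sign, 0.65 against ARP1 and 0.86 against OCI-MY5 (adjusted p = 0.130 and 0.0695 over all probe sets). FASN, the fatty acid synthase, read 227 to 1234 with a wide error, 1.33 ± 0.53 for OPM2 minus OCI-MY5 (adjusted p = 0.126). FADS2, a desaturase of polyunsaturated chains, read 88.3 to 260.1. Its 2 OPM2 values, 88.3 (CD24+) and 96.3 (CD24-), were at or below the highest TrpnX reading, 96.4 on the CD24+ array of OPM2. The highest TrpnX reading on the CD24- array of OPM2 itself was 61.3.

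Set side by side, the sterol branch had a median of 0.29 for OPM2 minus ARP1 and 0.49 for OPM2 minus OCI-MY5, and the fatty acid branch −0.75 and −0.54, beside medians over all genes of −0.04 and −0.00169. Both OPM2 arrays lay above all 4 others for 7 of 15 sterol enzymes and below all for 0, and for the fatty acid branch the counts were 2 and 4 of 7. The share of all genes with these patterns was not counted, so no contrast is drawn from these counts. In either direction, OPM2 arrays did not overlap those of ARP1 in 65.6% of all genes and those of OCI-MY5 in 65.8%. For ARP1 minus OCI-MY5 the medians were 0.20 and 0.21, and the fatty acid median was 0.53 with the mean of all probe sets and 0.56 without the CD24- array of ARP1. The difference between branches was not tested. Centring each array on its median moved the medians over all genes to −0.30 against ARP1 and −0.40 against OCI-MY5. It moved the sterol medians to 0.02 against ARP1 and 0.10 against OCI-MY5, and the fatty acid median against OCI-MY5 to −0.94. That last median was −0.16 with the mean of all probe sets (3 members higher, 3 lower), −0.33 without the CD24- array of OCI-MY5 and −0.16 without that array and the OPM2 CD24+ array.

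Where a called member had several probe sets, most went the same way. Of the 9 such members between OPM2 and OCI-MY5, 7 had all sets in the direction of the chosen one, IDI1 and ELOVL5 being the exceptions. Of 4 between OPM2 and ARP1, 3 did, with ELOVL5 the exception. This is agreement of sign only. Tested over all probe sets, no set of IDI1, NSDHL, SREBF2 or INSIG2 passed against OCI-MY5, and no set of HSD17B7 or INSIG1 against ARP1. Nor did any set of SREBF1 or INSIG1 pass in ARP1 minus OCI-MY5. The dimmer NSDHL set gave 0.24 and an SREBF2 set 0.30 for OPM2 minus OCI-MY5.

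**Figure D4:**
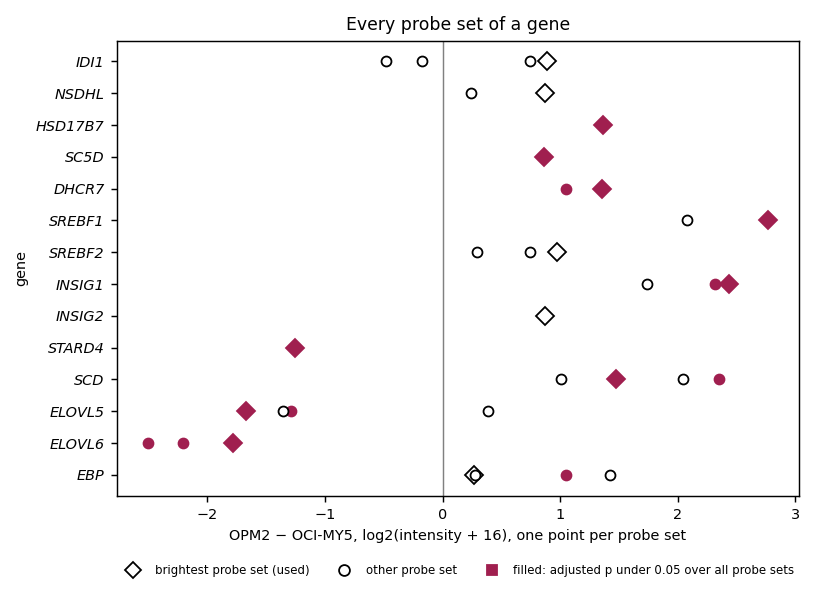
OPM2 minus OCI-MY5 (log2) for every probe set of the called genes and EBP, 1 point per probe set, with diamonds for the set used and filled points for an adjusted p under 0.05 over all probe sets. IDI1 and ELOVL5 have points on both sides of 0, and the EBP sets lie from the 0.27 of the chosen one upward.

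Between the CD24 fractions no member passed the test, and neither did any of the 12078 genes (0%). At an unadjusted p under 0.05 limma gave 1 member, TM7SF2, and 149 genes (1.23%). That fit had no term for the line, so the spread between lines counted as error. With the cell line as a block 0 members and 0 genes were called, with 560 genes at an unadjusted p under 0.05. Of the 28 members 2 were higher and 5 lower in the CD24+ cells of all 3 lines, beside 16.9% and 12.2% of all genes. The median difference was −0.12 over the sterol branch and −0.07 over the fatty acid branch, beside 0.03 over all genes. Without 1 array these medians ranged from −0.25 to 0.13 and from −0.35 to 0.27.

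TM7SF2 read 462 (CD24+) and 322 (CD24-) in ARP1, 643 and 359 in OCI-MY5, and 492 and 246 in OPM2. It was higher in the CD24+ cells of each line, by a mean of 0.76 ± 0.23 (SD, n = 3), and missed the adjusted threshold. Centring took the mean to 0.43 and the median over all genes to −0.30. SREBF2 was higher in each line by a mean of 0.30 ± 0.21, but median centring gave −0.03 and leaving out the OPM2 CD24+ and OCI-MY5 CD24- arrays gave −0.17. ACLY read 9842 and 11702 in ARP1, 7997 and 10821 in OCI-MY5, and 5678 and 7161 in OPM2. It was lower in the CD24+ cells of each line, with a mean of −0.34 ± 0.09 (SD), and its differences were −0.25 (ARP1), −0.44 (OCI-MY5) and −0.33 (OPM2). Without 1 array the ACLY value ran from −0.56 (without the CD24- array of OPM2) to −0.13 (without its CD24+ array), median centring gave −0.67, and without the OPM2 CD24+ and OCI-MY5 CD24- arrays it was −0.045. SQLE read 4671 and 4752 in ARP1, 4218 and 5517 in OCI-MY5, and 3264 and 5982 in OPM2, and its differences ran from −0.02 in ARP1 to −0.87 in OPM2. Its mean of −0.43 was −0.28 without the CD24+ array of OPM2 and −0.76 with centring. IDI1, SC5D and ELOVL5 were lower in each line by smaller amounts, with means of −0.20, −0.18 and −0.08. IDI1 turned to 0.13 without the CD24- array of OPM2, and SC5D to 0.01 without that array and to 0.05 without the CD24+ array of OCI-MY5.

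**Figure D5:**
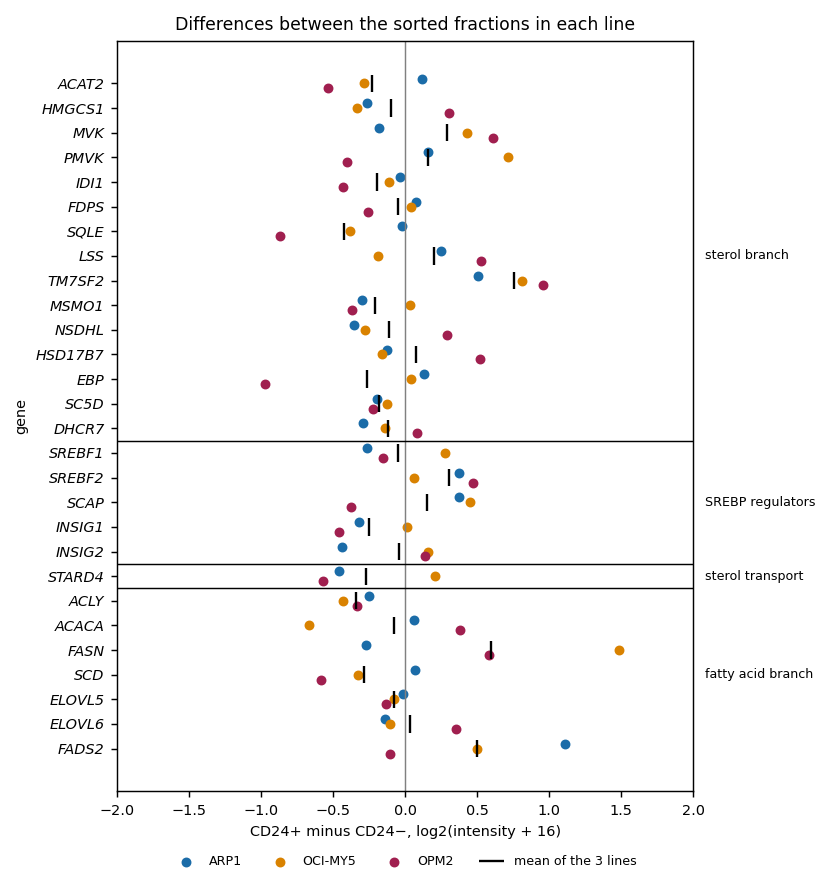
CD24+ minus CD24- in each line (coloured points, log2 of intensity + 16) and the mean of the 3 lines (bar) for the 28 tested members. Points of most genes fall on both sides of 0, and TM7SF2 is to the right in all 3 lines with a mean of 0.76.

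Genes beside the members came from 7 lists of the same biology, and their counts stand beside 10.1% of all genes higher and 14.8% lower in OPM2 than in ARP1, and 11.4% and 14.7% against OCI-MY5. Among other sterol enzymes 2 of 5 were tested, and both were higher in OPM2 in each pair. LBR, a nuclear envelope protein with the C14 reductase activity that TM7SF2 also has, gave 1.21 ± 0.20 against ARP1 (adjusted p = 0.0156) and 0.90 ± 0.20 against OCI-MY5 (adjusted p = 0.0325). ERG28, a scaffold of sterol enzymes, gave 1.11 and 1.09. Of 9 genes of SREBP cutting and of sterol-controlled protein turnover, 8 were tested, with 1 higher and 1 lower in OPM2 than in ARP1 and 1 higher than in OCI-MY5. MBTPS2, the protease that makes the second cut, gave 1.43 ± 0.26 against OCI-MY5 (adjusted p = 0.0184). SPRING1, a factor of the first cut, gave 0.71 against ARP1, and the ubiquitin-conjugating enzyme UBE2G2 gave −0.999.

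Of 11 genes of sterol uptake and traffic, 9 were tested, with 1 higher in OPM2 than in ARP1 and 2 higher than in OCI-MY5. NPC1, which passes cholesterol out of lysosomes, gave 1.16 and 0.77, and its partner NPC2 gave 1.08 against OCI-MY5. In sterol export and esterification 6 of 8 were tested. ABCA1, the cholesterol exporter, read 1512 and 1484 in ARP1, 438 and 195 in OCI-MY5, and 179 and 109.5 in OPM2, with −3.27 ± 0.43 for OPM2 minus ARP1 (adjusted p = 0.00789). NR1H3, an oxysterol receptor that drives ABCA1 in many cells, was highest in OCI-MY5, where OPM2 minus OCI-MY5 was −2.14 (adjusted p = 0.00576). MYLIP, a ubiquitin ligase for lipoprotein receptors, gave 1.89 in that pair.

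Of 12 genes that use isoprenoids all were tested, with 3 higher and 2 lower in OPM2 than in ARP1 and 2 lower than in OCI-MY5. PGGT1B, a subunit of the enzyme that attaches geranylgeranyl groups, read 1556 and 1881 in ARP1, 1865 and 1633 in OCI-MY5, and 309 and 279.9 in OPM2. It was lowest in OPM2, at −2.48 against ARP1 (adjusted p = 0.00212) and −2.50 against OCI-MY5 (adjusted p = 0.00191). RABGGTB, which serves the prenylation of Rab proteins, gave −1.47 against OCI-MY5, while the dim FNTB gave 1.28 and RABGGTA −1.02 against ARP1.

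Among 22 other genes of acyl-CoA and elongation, 17 were tested, with 4 higher and 3 lower in OPM2 than in ARP1 and 4 and 4 against OCI-MY5. ME1, the cytosolic malic enzyme, read 1.85 to 49.6 on the ARP1 and OCI-MY5 arrays, below the highest TrpnX reading, that of the CD24+ array of OPM2. The 49.6, on the CD24+ array of ARP1, lay above that array's own highest TrpnX reading of 10.3, and the other values lay below theirs. In OPM2 it read 702 and 961, with a difference of 5.41 against OCI-MY5 that depends on the pseudocount. ELOVL7, an elongase, gave 2.36 and 2.00 against ARP1 and OCI-MY5, and MID1IP1, a partner of acetyl-CoA carboxylase, 1.85 and 2.10. ACSL5, which activates fatty acids, was lower in OPM2, at −2.20 and −2.81. For NADPH supply 5 of 6 were tested, and MTHFD1, an enzyme of folate metabolism, was lower in OPM2 at −0.89 and −0.94.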

How the data were processed

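RNA of 6 samples was measured, 1 Affymetrix U133 Plus 2.0 array each, from 100 ng of total RNA per the labels' protocols. The authors deposited 1 linear MAS5 intensity for each probe set and array, made with Affymetrix Expression Console 1.1 per the submitters' processing notes. Of 54675 probe sets, 41091 were annotated to 1 gene symbol, 1801 to several and 11721 to none. Symbols were updated by Entrez ID through RefSeq. Intensities were taken as log2(intensity + 16), with a pseudocount of 16. A gene entered the tests where its mean log2 value reached 6.36, the median over non-control probe sets. Tests were two-sided and used limma 3.58.1 (R 4.3.3; lmFit, then eBayes), with Benjamini-Hochberg adjustment over 12078 genes and a threshold of 0.05. The fraction fit had no block and the line fit had 1 mean per line. Same-numbered samples come from the same line, and their deviations from the fraction means correlated at 0.70, 0.71 and 0.77, against −0.58 to 0.15 between lines, so the numbers pair the samples. No label names repeated cultures, so the spread may be technical. Promoter motifs were searched as letters, on both strands, in RefSeq windows. Arrays per group limit the precision. The genes and lists were chosen with earlier results of these data known. All 33 members are in the named-gene rule, with every array given for those called between lines, for the regulators, and for up to 6 with 1 sign of CD24+ minus CD24- in all lines and the largest mean difference; from other lists at most 4 called genes are named. Alternatives were other pseudocounts, filters, normalizations, probe set rules, prior variance, a block or fraction term, and left-out arrays, and 2 of them were added after the data were seen: leaving out a pair of arrays, and choosing probe sets by linear intensity. The fits were tested on simulated data. Some genes of the lists are not reported here.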

Additional observations from a re-analysis of the deposited data

Results flagged for a closer look

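In 3 members the CD24+ minus CD24- difference reached 2-fold in 1 line and had the opposite sign in another, with 1 array behind each value, and the differences between lines were not tested. FASN gave −0.27 (ARP1), 1.48 (OCI-MY5) and 0.58 (OPM2), so OCI-MY5 exceeded ARP1 by 1.75. The 1.48 rests on its lowest reading, 227 on the CD24- array of OCI-MY5, against 664 on the CD24+ array. That CD24- array had an ACTB 3′ to 5′ ratio of 23.2. The CD24+ array of OPM2, with a ratio of 27.1, gave the highest FASN reading, 1234. The part of RNA breakdown in these values was not tested. FADS2 gave 1.11 (ARP1), 0.50 (OCI-MY5) and −0.11 (OPM2), a gap of 1.22 between ARP1 and OPM2. MVD gave −0.37 (ARP1), 1.38 (OCI-MY5) and 1.46 (OPM2), a gap of 1.83 between OPM2 and ARP1. Its intensities were below the highest TrpnX control reading, that of the CD24+ array of OPM2.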

How the results depend on the processing

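Between the CD24 fractions 0 members were called under each of 17 alternatives, among them the cell line as a replicate block, where the numbers pair the samples and the lowest adjusted p of a member was 0.847. Between OPM2 and OCI-MY5, SREBF1, INSIG1, ELOVL5 and ELOVL6 stayed past the threshold under all 17 alternatives, with adjusted p up to 0.0203, 0.0329, 0.0470 and 0.0459, as did DHCR7 between OPM2 and ARP1, up to 0.0481. Single probe sets were not among these 17 alternatives, and on some of them these calls were lost. Over all probe sets the dimmer SREBF1 set gave an adjusted p of 0.0557 against OCI-MY5, and an INSIG1 set gave 0.0860. A dim ELOVL5 set gave 0.203, and the dimmer DHCR7 set gave 0.0568 against ARP1. All 3 ELOVL6 sets kept the call. The counts of members called in OPM2 minus ARP1, OPM2 minus OCI-MY5, ARP1 minus OCI-MY5 and among the lines were 6, 13, 2 and 9, beside 25%, 26.1%, 2.62% and 28.5% of all genes. Without a filter on dim genes they were 3, 5, 0 and 6 of 29 (7.23%, 8.29%, 0% and 6.86%), and with median centring 3, 5, 0 and 5 (15.4%, 17.9%, 1.21% and 17.7%). Centring shifted the median of all genes by −0.27 and −0.39 in the OPM2 comparisons and −0.33 between the fractions, and took the share of calls that were higher from 40.6% to 22.2% and from 43.5% to 22.5%. A filter at the 75th percentile gave 12, 16, 7 and 15 of 27 (42.2%, 41.7%, 16.8% and 52.3%), and an intensity trend in the prior variance 12, 17, 5 and 17 (33.5%, 33.2%, 11.4% and 41.1%). ARP1 minus OCI-MY5 gave 0 calls with a pseudocount of 1, with the mean of all probe sets and with the fraction as a covariate (1.35%, 1.27% and 0.0497%). That covariate gave 5 and 10 calls in the OPM2 comparisons, without HSD17B7 against ARP1 and IDI1, NSDHL and INSIG2 against OCI-MY5. Leaving out 1 array gave 2 to 8, 4 to 15, 0 to 3 and 5 to 11. Without the OPM2 CD24+ and OCI-MY5 CD24- arrays the counts were 7, 5, 0 and 8. The cause of these changes was not tested. Some single values changed sign. SREBF2 between the fractions was −0.029 with centring, −0.17 without those 2 arrays and −0.053 on a dimmer probe set. SC5D was 0.24 with the mean of probe sets, and without 1 array it ran from −0.45 to 0.054, with 0.054 without the CD24+ array of OCI-MY5 and 0.00995 without the CD24- array of OPM2. IDI1 ran from −0.40 to 0.13, the latter without that same array. On single probe sets a dim ELOVL5 set gave 1.01 (OPM2 minus ARP1) and 0.38 (OPM2 minus OCI-MY5), 2 IDI1 sets gave −0.17 and −0.48, and the dimmer SREBF1 set gave −0.18 for ARP1 minus OCI-MY5.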

Other observations

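CYP51A1, the sterol C14 demethylase, and FADS1, a desaturase of polyunsaturated chains, have probe sets annotated to a second gene as well, so they stand outside the counts above. The brighter CYP51A1 set read 4061 (CD24+) and 5890.0 (CD24-) in ARP1, 3558 and 4015 in OCI-MY5, and 2765 and 3367 in OPM2. The brightest FADS1 set read 1896 and 1897 in ARP1, 225 and 365 in OCI-MY5, and 652 and 684 in OPM2, and 2 other FADS1 sets also read highest in ARP1, at 1801 and 1890.5 and at 1433 and 1351. No test was run on these sets.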
